A study of Mus musculus with 2 samples.

Results

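Nucleoporins, the proteins of the nuclear pore, and the transport receptors that carry cargo through it were examined in mature mouse oocytes of aged and young females. The genes were taken by symbol, as all rows named Nup, Kpna, Kpnb, Ipo, Tnpo or Xpo followed by a number, and Xpot. They came to 44 of the 36227 genes in the table, 20 nucleoporins and 24 transport receptors, a pseudogene row included. The cells were ovulated oocytes in metaphase II (MII), the stage at which meiosis halts until fertilisation, from ICR mice that ovulated naturally and share one diet and housing. The aged library came from females of 12 months and the young library from females of 3 months, each a single pool of 18 oocytes from 6 females, with 3 oocytes per female. The comparison asks how maternal age changes the oocyte's messenger RNA. With 1 library per age the spread between females cannot be measured. No test of age was therefore made, and the 95% intervals below cover counting error only.

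Macromolecules cross the nuclear envelope through pores built from stacked rings of nucleoporins, with cytoplasmic filaments, a nuclear basket and a central channel of phenylalanine-glycine repeats. Importin alpha proteins (Kpna genes) bind a classical nuclear localisation signal and join importin beta (Kpnb1), while other importins, transportins and exportins bind cargo directly, all governed by the GTPase Ran. An MII oocyte has no nuclear envelope, and its stored pore proteins and receptors are used when pronuclei form after fertilisation. In dividing cells Ran and the importins also control the release of spindle assembly factors, and the outer ring complex of the pore is also found at kinetochores.

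The deposited counts summed to 18597656 in the aged pool and 19475110 in the young pool, and CPM below are counts per 1000000 of these totals. A gene was described by its ratio of aged over young after scaling to these totals if its counts averaged at least 20 over both libraries, which 10211 genes reached. The median gene had a log2 ratio of 0.43, so values between 0 and 0.43 change sign when set against the median gene. All 10 oocyte markers examined were present, with 9.77% of the counts in the aged pool and 17.8% in the young one. Gdf9 and H1foo gave most of these, and the markers did not share a direction. Dppa3, with 2023 CPM in the aged and 935 in the young pool, Ddx4, with 56.5 and 28.3, and Zp3, with 1020 and 936, were higher in the aged pool. The rest were lower. The 15 markers of cumulus and granulosa cells summed to 1183 counts in the aged pool and 524 in the young one, and 8 of them, not all the same, were at 0 in each. Cyp19a1, with 1056 counts in the aged pool and 436 in the young one, gave most of these. Amh, Foxl2 and Lhcgr had no counts, and Fshr had 16 counts in the aged pool and 0 in the young one. Nr5a2 had 106 in the aged and 38 in the young pool. Among those lower in the aged pool were Cyp11a1 with 1 and 27, Inha with 0 and 14 and Cd44 with 0 and 6. Of 7 markers of other somatic cells, 4 were at 0 in the aged pool and 2 in the young one, with summed counts of 738 and 462. Pecam1 gave most of these, with 723 in the aged and 381 in the young pool. Vim, with 0 and 51, and Col1a1, with 7 and 19, were lower in the aged pool. The part of such cells in the differences below was not tested.

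Promoters of the members were mostly rich in CpG, and those of Kpna7 and Nup160 were not. Kpna7 encodes the importin alpha of oocytes and early embryos. RefSeq promoter sequences of GRCm38.p6, a later build than the mm9 of the counts, which run from 250 bases before to 50 after an annotated start, were matched to 34 of the 44 members, with the first start taken where a gene had several. The start used in oocytes was not measured. The Kpna7 promoter (chr5:145009587-145009886, minus strand) is shown as the oocyte gene. It stands beside those of Nup155 (chr15:8109063-8109362, plus strand) and Xpo1 (chr11:23255791-23256090, plus strand), which lay far higher in the aged pool, and Nup107 (chr10:117792656-117792955, minus strand), the furthest lower of the members above the floor. Capitals mark matches, on either strand, to the E-box CANNTG, the CCAAT box, the GC box GGGCGG and the palindromic NRF1 motif.
Kpna7: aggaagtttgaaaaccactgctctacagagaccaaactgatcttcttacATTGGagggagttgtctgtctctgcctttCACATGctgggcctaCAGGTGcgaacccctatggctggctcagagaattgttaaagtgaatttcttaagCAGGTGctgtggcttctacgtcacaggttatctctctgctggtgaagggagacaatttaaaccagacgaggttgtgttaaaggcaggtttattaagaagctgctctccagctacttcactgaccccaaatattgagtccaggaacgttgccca
Nup155: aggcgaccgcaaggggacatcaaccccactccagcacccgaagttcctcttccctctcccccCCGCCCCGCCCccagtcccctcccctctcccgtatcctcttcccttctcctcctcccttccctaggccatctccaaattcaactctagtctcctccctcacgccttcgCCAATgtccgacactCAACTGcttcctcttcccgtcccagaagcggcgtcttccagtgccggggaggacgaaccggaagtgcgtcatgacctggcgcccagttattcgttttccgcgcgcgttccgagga
Xpo1: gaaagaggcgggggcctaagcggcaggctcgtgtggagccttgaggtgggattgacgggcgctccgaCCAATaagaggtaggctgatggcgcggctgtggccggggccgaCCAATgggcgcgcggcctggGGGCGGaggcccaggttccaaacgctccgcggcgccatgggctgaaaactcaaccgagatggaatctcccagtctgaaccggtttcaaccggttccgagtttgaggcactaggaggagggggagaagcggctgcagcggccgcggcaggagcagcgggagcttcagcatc
Nup107: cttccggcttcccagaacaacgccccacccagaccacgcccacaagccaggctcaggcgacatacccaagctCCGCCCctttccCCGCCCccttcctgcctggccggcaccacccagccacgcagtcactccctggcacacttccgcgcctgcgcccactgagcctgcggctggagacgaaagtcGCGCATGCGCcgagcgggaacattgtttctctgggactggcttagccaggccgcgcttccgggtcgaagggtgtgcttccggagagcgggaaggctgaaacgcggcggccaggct
The Kpna7 window held 4 CpG and 3 E-box matches, which is a class of site bound by the oocyte factor Figla among many others. The other windows shown held 23 CpG (Nup155), 27 CpG (Xpo1) and 27 CpG (Nup107). Over the 34 matched members the number of CpG had a median of 28 and ran from 4 to 47, with Kpna7 the lowest, against a median of 7 over 27025 genes, of which 38.3% had no more than Kpna7. Nup160, a nucleoporin gene, was next to Kpna7 with 6 CpG, so a low number was not particular to the oocyte importin. The E-box occurred in 13 of the 34 members and in 72.1% of all promoters of this length, the GC box in 23 members and 35.9% of all, and the CCAAT box in 19 members and 37.9% of all. The NRF1 motif occurred in 3 members (Nup107, Nup50 and Xpo5) and in 0.977% of all. These 3 genes did not share a direction, with log2 ratios of −2.28 (Nup107), 0.39 (Nup50) and 0.75 (Xpo5).

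Of the 44 genes, 33 reached the mean of 20 counts. Of these 33, the aged pool was higher by 2-fold or more for 7, as it was for 27.9% of all genes, and lower by as much for 3, as for 10.6% of all genes. The shares of the members were 21.2% and 9.09%, near those of all genes. The counting interval itself lay beyond 2-fold for 5 higher members (Nup155, Xpo4, Xpo1, Kpna3 and Nup43) and 1 lower member (Nup107), against 18.0% and 6.35% of all genes. The median log2 ratio of the 33 was 0.39, close to the 0.43 of all genes, with quartiles of −0.30 and 0.86 against −0.28 and 1.09. Set against the median gene, 4 were past 2-fold in each direction, as were 16.0% of all genes above and 17.3% below. With TMM scaling the numbers were again 4 and 4, where all genes had 17.2% and 16.3%, and with totals that omit the 100 top genes 4 and 3, where all genes had 19.5% and 14.6%. By a 1.5-fold rule 12 were higher, as were 43.3% of all genes. Of the 12 members that averaged 1000 counts or more, 1 (Kpna3) was past 2-fold on the higher side and none on the lower, or 8.33% and 0%, where the 2175 genes of that level had 21.9% and 5.70%. The floor admits a gene that is low in 1 library only, such as Nup155 or Xpo4, so these counts describe the members that passed. The authors' deposited table marked 27 of the 33 at its threshold of p below 0.001, with the aged pool above the young one for 19 and below it for 8. In the authors' deposited table the same marks fall on 47.0% and 19.5% of the 10211 genes, they compare reads of 1 library per age, and 17 of the 27 were smaller than 2-fold.

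**Figure D1:**
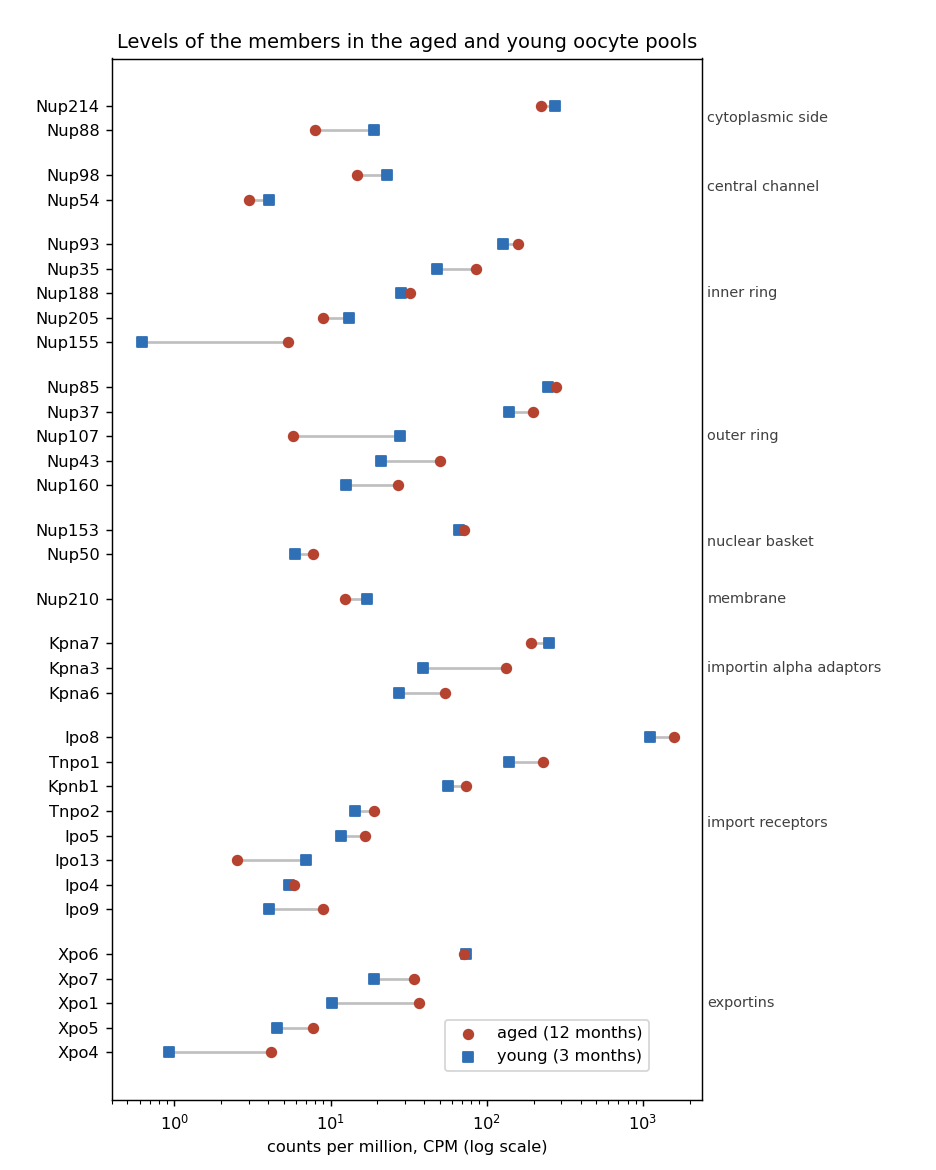
Level of each of the 33 genes above the floor in the aged pool (circles) and the young pool (squares), in CPM on a log axis, 1 library per age. Genes are grouped by role. The longest gaps are those of Nup155, with 5.38 CPM in the aged and 0.616 CPM in the young pool, and Nup107, with 5.75 CPM in the aged and 27.9 CPM in the young pool.

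The nucleoporins summed to 0.119% of all counts in the aged pool and 0.108% in the young one, and all members together 0.367% and 0.286%. These are shares of a library, since the total RNA per oocyte was not measured. Ipo8 alone held 43.2% of the members' counts in the aged pool and 39.1% in the young one. Per kb of the annotated transcript, the scale on which genes can be set side by side, the most abundant members were the same 4 in both pools. Ipo8 had 296 CPM per kb in the aged pool and 209 in the young one. Nup37 followed with 155 in the aged and 109 in the young pool, Nup85 with 124 and 111, and Kpna7 with 79.1 and 102. The lowest level among members above the floor was 0.477 CPM per kb in the aged pool (Xpo4) and 0.0787 in the young pool (Nup155). How evenly reads covered the transcripts is not known, and a length scale assumes that they did.

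The importin alpha genes summed to 7102 counts in the aged pool and 6180 in the young one, and the genes that made up that sum differed in their shares. Kpna7 (ENSMUSG00000038770, chromosome 5) had 3607 counts in the aged pool and 4874 in the young one, or 194 and 250 CPM. That was 1.29-fold lower in the aged pool (interval 1.24 to 1.35), a log2 ratio of −0.37, and −0.79 against the median gene. Kpna3 (ENSMUSG00000021929, chromosome 14), a broadly expressed adaptor, had 2468 counts in the aged pool and 761 in the young one. It was 3.40-fold higher in the aged pool (interval 3.13 to 3.69), and its log2 ratio of 1.76 was 1.34 against the median gene. Kpna6, an adaptor that mouse embryos receive from the mother, had 1013 counts in the aged pool and 538 in the young one, 1.97-fold higher (interval 1.77 to 2.19).

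Kpna7 made up 50.8% of all importin alpha counts in the aged pool (exact binomial interval 49.6 to 52.0%) and 78.9% in the young one (77.8 to 79.9%). Kpna3 made up 34.8% in the aged and 12.3% in the young pool, and Kpna6 14.3% and 8.71%. Per length, the Kpna7 share was 65.1% in the aged pool and 87.5% in the young pool. The number of Kpna3 counts per Kpna7 count, which no scaling of the libraries alters, was 0.684 in the aged pool (0.650 to 0.720) and 0.156 in the young one (0.144 to 0.169), a 4.38-fold difference. These shares and ratios are not corrected for base composition. After the correction for length and GC content given below, the log2 ratio of Kpna3 fell from 1.76 to 0.67, and that of Kpna7 from −0.37 to −0.995. The other adaptors were nearly without counts. Kpna2, the adaptor of most proliferating cells, had 5 counts in the aged pool and 7 in the young one, Kpna4 had 8 and 0, and Kpna1 had 1 and 0. The row of the pseudogene Kpna2-ps had 0 in the aged and 1 in the young pool, and how reads shared by such copies were counted is not known. For Kpna4 the level in the aged pool was 2.79-fold that of the 3 counts set in place of 0 in the young one. The near end of its counting interval was 1.79-fold.

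**Figure D2:**
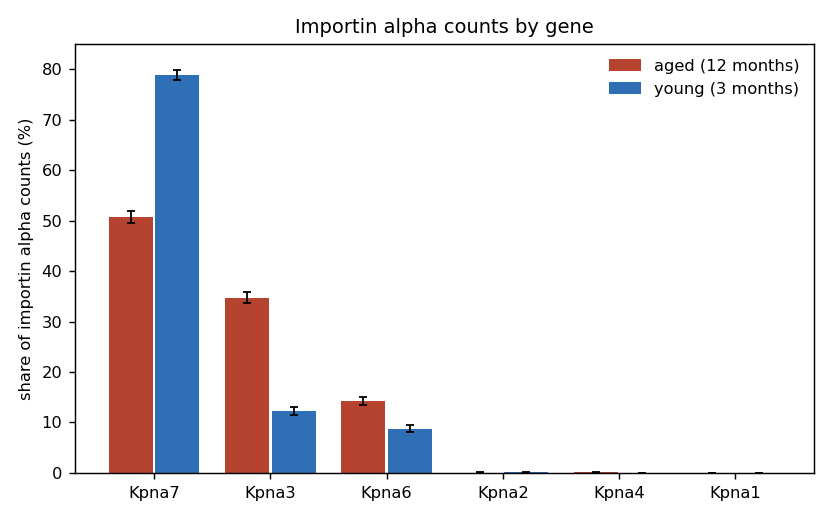
Share of each gene in the summed counts of the 6 importin alpha genes, in percent, for the aged pool (left bars) and the young pool (right bars), with 95% exact binomial intervals that cover counting error only. Kpna7 holds 50.8% in the aged and 78.9% in the young pool, and Kpna3 34.8% and 12.3%.

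Of the importin beta-type import receptors, 8 of 11 were above the floor, with 1 past 2-fold in each direction, and their median log2 ratio was 0.45. That is 12.5% each way, against 27.9% of all genes on the higher side and 10.6% on the lower. No import receptor was past 2-fold on the higher side under the other scalings or the length and GC correction. The median was 0.028 against the median gene and −0.13 after the correction. Ipo8 (ENSMUSG00000040029, chromosome 6), which carries Smad and Argonaute proteins, had 29517 counts in the aged pool and 21792 in the young one, or 1587 and 1119 CPM. It was 1.42-fold higher in the aged pool (interval 1.39 to 1.44), which is 0.079 on the log2 scale against the median gene. Its share of the import receptor counts was 81.5% in the aged and 82.4% in the young pool. Tnpo1, the transportin of hnRNP proteins, had 4270 counts in the aged pool and 2707 in the young one, 1.65-fold higher (1.57 to 1.73). Kpnb1, the partner of all importin alphas, had 1370 in the aged and 1106 in the young pool, 1.30-fold higher (1.20 to 1.41) and −0.050 on the log2 scale against the median gene.

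The less abundant import receptors spread further. Ipo9, a histone importer, had 167 counts in the aged pool and 79 in the young one, 2.21-fold higher (1.68 to 2.93), with a log2 ratio of 1.15 that lay between 0.65 and 0.86 under the other scalings and the correction. Ipo13 (ENSMUSG00000033365, chromosome 4), which carries cargo both ways, had 47 in the aged and 136 in the young pool, 2.76-fold lower (1.97 to 3.94). It was the member with the highest transcript GC content, 57.5%. Ipo5, an importer of ribosomal proteins with 311 counts in the aged and 229 in the young pool, was 1.42-fold higher, Tnpo2, a close relative of Tnpo1 with 355 and 281, 1.32-fold higher, and Ipo4, an importer of histones with 109 and 105, 1.09-fold higher with an interval of 0.824 to 1.43 that includes equality. Below the floor, Ipo11 had 29 counts in the aged pool and 10 in the young one, Tnpo3, the importer of SR splicing proteins, 29 and 8, and Ipo7 1 and 0. The sum of 39 for Ipo11 fell just short of the 40 needed.

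Exportins had 5 of 6 genes above the floor, with 2 past 2-fold on the higher side and none on the lower, and a median log2 ratio of 0.86. From only 5 genes, the shares were 40% and 0%, against 27.9% and 10.6% of all genes. Against the median gene the exportins again had 2 and 0, with a median of 0.43. After the length and GC correction they had 1 and 0, with a median of 0.35. Xpo1 (ENSMUSG00000020290, chromosome 11) encodes the general exporter of proteins with leucine-rich signals. It had 684 counts in the aged pool and 199 in the young one, 3.60-fold higher (3.07 to 4.24), with a log2 ratio of 1.85 that is 1.42 against the median gene. Xpo4 (ENSMUSG00000021952, chromosome 14), the exporter of eIF5A, had 77 in the aged and 18 in the young pool, 4.48-fold higher (2.66 to 7.95). Xpo7, which mouse erythroblasts need to condense their nuclei, had 637 and 368 counts, 1.81-fold higher, and Xpo5, the exporter of microRNA precursors, 143 and 89, 1.68-fold higher in the aged pool. Xpo6, the exporter of actin, had 1329 counts in the aged and 1431 in the young pool, 1.03-fold lower with an interval of 0.954 to 1.11 that includes equality. Xpo1 therefore made up 23.8% of exportin counts in the aged pool (22.3 to 25.4%) and 9.45% in the young one (8.24 to 10.8%), and Xpo6 46.3% and 68.0%. Xpot, the exporter of transfer RNA, had 1 count in the aged and 0 in the young pool, which allows up to 0.154 CPM in the young pool.

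The outer ring of the pore is built from the Y-shaped complex, whose subunits assemble together, and their transcripts lay on both sides of equality. Of its 6 members, 5 were above the floor, with 2 past 2-fold on the higher side, 1 on the lower and a median log2 ratio of 0.51. From only 5 genes, these shares were 40% and 20%, against 27.9% and 10.6% of all genes. No member was past 2-fold on the higher side with TMM scaling, against the median gene, without the 100 top genes in the totals or after the length and GC correction, and the median was then 0.14, 0.087, 0.23 and −0.12. Nup107 (ENSMUSG00000052798, chromosome 10), in the stem of the Y, had 107 counts in the aged pool and 544 in the young one, 4.86-fold lower (3.94 to 6.03). Its log2 ratio of −2.28, −2.71 against the median gene, was the lowest of the members above the floor. Nup160, in an arm of the Y, had 504 in the aged and 245 in the young pool, 2.15-fold higher (1.85 to 2.52). Nup43 (ENSMUSG00000040034, chromosome 10), another arm subunit, had 929 and 411, 2.37-fold higher (2.11 to 2.66). Against the median gene their log2 ratios were 0.68 (Nup160) and 0.82 (Nup43).

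Among the members of that ring above the floor, the 2 most abundant per kb lay closest to equality. Sec13, a subunit that the symbols do not take, was more abundant per kb than either, with 7672 counts in the aged pool and 10761 in the young one, 1.34-fold lower (1.30 to 1.38). Nup85 had 5156 counts in the aged pool and 4829 in the young one, 1.12-fold higher (1.07 to 1.16), and Nup37 had 3677 and 2699, 1.43-fold higher. Nup133, the partner of Nup107 in the stem, lay below the floor with 3 and 17 counts, 5.41-fold lower with an interval of 1.57 to 28.8. Within a library the number of Nup107 counts per Nup160 count was 0.212 in the aged pool (0.171 to 0.262) and 2.22 in the young pool (1.91 to 2.59), a 10.5-fold difference that does not depend on scaling. Against Nup85 it was 0.0208 in the aged and 0.113 in the young pool. Nup107 made up 1.03% of the outer ring counts in the aged pool and 6.22% in the young one.

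In the inner ring all 5 members were above the floor, 1 past 2-fold on the higher side and none on the lower, with a median log2 ratio of 0.33. The shares were 20% and 0%, against 27.9% and 10.6% of all genes. Against the median gene the inner ring again had 1 and 0, with a median of −0.098. After the length and GC correction it had 1 on each side, with a median of 0.024. Nup155 (ENSMUSG00000022142, chromosome 15), which ties the ring to the membrane, had 100 counts in the aged pool and 12 in the young one. That was 8.73-fold higher (4.78 to 17.5), a log2 ratio of 3.13 and the highest of the members above the floor, though from few counts in the young pool. Nup35, another membrane-binding subunit, had 1593 in the aged and 940 in the young pool, 1.77-fold higher (1.64 to 1.93). Nup93, the core subunit, had 2961 and 2470, 1.26-fold higher (1.19 to 1.32), and Nup188 had 600 and 548, 1.15-fold higher (1.02 to 1.29). Nup205, a relative of Nup188, had 167 in the aged and 254 in the young pool, 1.45-fold lower (1.19 to 1.78).

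The 4 members of the cytoplasmic face and central channel had lower levels in the aged pool, while other proteins of these regions, outside the symbol rule, did not all share that direction. Nup88 (ENSMUSG00000040667, chromosome 11) had 149 counts in the aged pool and 370 in the young one, 2.37-fold lower (1.96 to 2.89). Nup214, which forms a complex with Nup88 and binds Xpo1, had 4153 in the aged and 5357 in the young pool, 1.23-fold lower (1.18 to 1.28). Nup98, a mobile repeat nucleoporin whose gene also encodes an outer ring subunit, had 274 and 451, 1.57-fold lower (1.35 to 1.83). Nup54 of the channel had 56 in the aged and 79 in the young pool, 1.35-fold lower with an interval of 0.945 to 1.93 that includes equality. Setting against the median gene and TMM scaling lower every ratio, so these 4 genes were bound to stay lower under both. The correction for length and GC content could have changed their side. After it their log2 ratios were −1.86 (Nup88), −0.39 (Nup214), −1.33 (Nup98) and −1.15 (Nup54). Nup58 and Nup42, proteins of the same regions, carry the symbols Nupl1 and Nupl2 in the annotation and so lie outside the 44. Looked up afterwards, Nupl1 had 63 counts in the aged and 26 in the young pool, 2.54-fold higher (1.58 to 4.18). Nupl2 had 104 and 112, 1.03-fold lower with an interval of 0.780 to 1.36 that includes equality. The low ratios did not extend to Nupl1, and Nupl2 lay near equality. Nup62 was not analysed here.

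The nuclear basket showed little difference. Nup153 had 1339 counts in the aged pool and 1302 in the young one, a log2 ratio of 0.11, and Nup50, a cofactor of importin alpha, had 144 and 115, a log2 ratio of 0.39. Nup210, the pore membrane glycoprotein, had 229 in the aged and 334 in the young pool, 1.39-fold lower (1.17 to 1.66), while its relative Nup210l had no counts. Nup62cl, a relative of Nup62 on chromosome X, had 5 and 0 counts. Of the 17 nucleoporins above the floor, 3 (17.6%) were past 2-fold on the higher side and 2 (11.8%) on the lower, with a median log2 ratio of 0.16. Against the median gene they were 1 and 3, with a median of −0.26, with TMM scaling 1 and 3, with a median of −0.21, and after the length and GC correction 1 and 5, with a median of −0.28. Of the 16 receptors, 4 (25%) were on the higher side and 1 (6.25%) on the lower, with a median of 0.62. With the same library totals, all genes had 27.9% and 10.6%. Against the median gene the receptors had 3 and 1, with a median of 0.19, and after the correction 1 and 1, with a median of 0.049. No test of the difference between nucleoporins and receptors was possible.

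**Figure D3:**
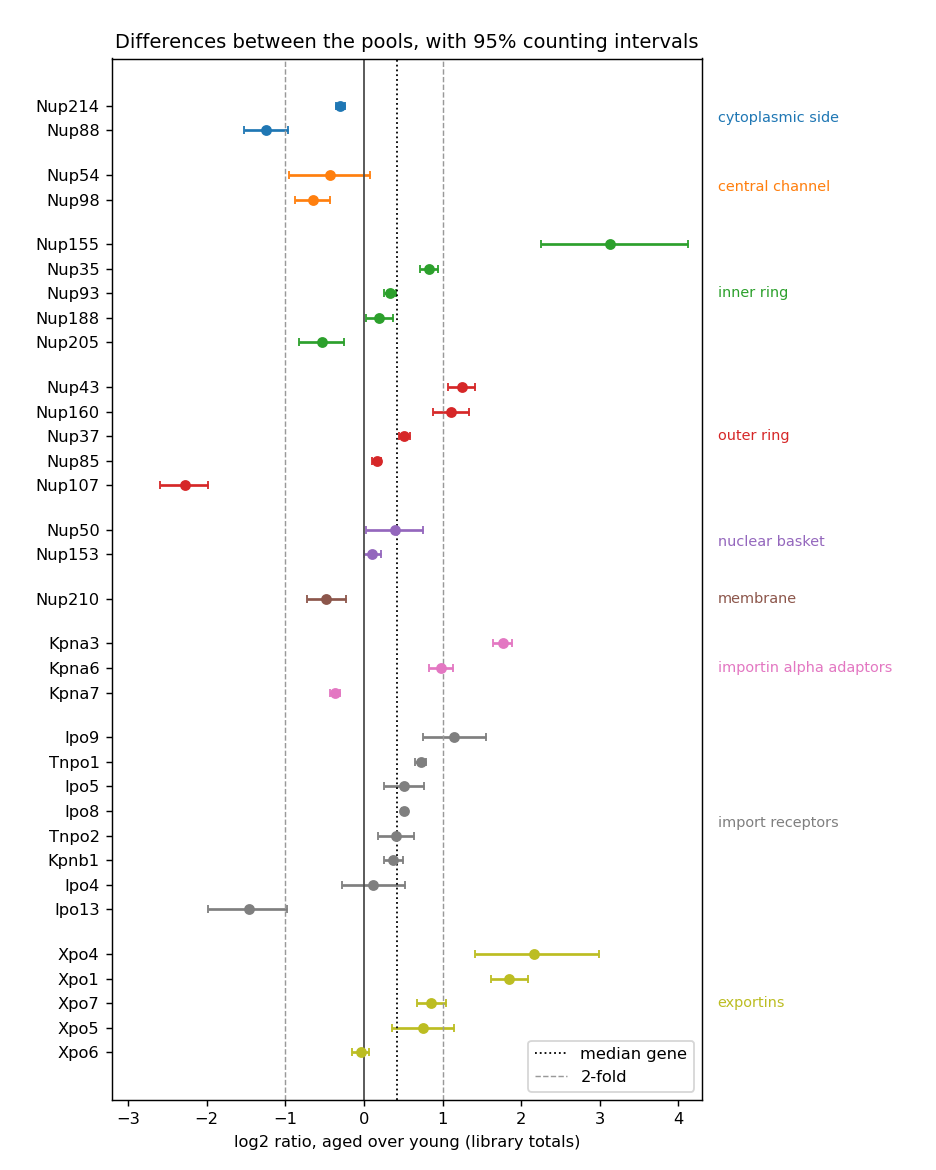
Log2 ratio of aged over young for the 33 genes above the floor, after scaling to library totals, with 95% counting intervals as bars, grouped by role. Dashed lines mark 2-fold and the dotted line the median of all 10211 genes at 0.43. Nup155 at 3.13 and Nup107 at −2.28 are the extremes, and Nup88, Nup214, Nup98 and Nup54 lie left of 0.

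Genes of the same pathway that the symbols do not take were described from a list of 38, of which 35 were above the floor. Higher by 2-fold or more were 11, or 31.4% against 27.9% of all genes, and 1 was lower by as much, or 2.86% against 10.6%, with a median log2 ratio of 0.32. Against the median gene the list had 7 higher and 2 lower with a median of −0.11, with TMM scaling 8 and 2 with a median of −0.054, and after the length and GC correction 6 and 5 with a median of −0.025. The 18 genes of messenger RNA export held 8 of the higher genes and the largest ratios. Their shares were 44.4% higher and 5.56% lower, against the 27.9% and 10.6% of all genes. Against the median gene these 18 had 4 higher and 2 lower, and after the length and GC correction 5 and 3. Thoc5 and Thoc1, subunits of the THO complex that packages nascent messages, had 83 counts in the aged and 15 in the young pool and 343 and 66. They were 5.79-fold (3.32 to 10.8) and 5.44-fold (4.17 to 7.19) higher. Eny2, of the export complex TREX-2, had 3290 and 811 counts and was 4.25-fold higher (3.93 to 4.59). After the length and GC correction the log2 ratios were 2.37 (Thoc5), 1.35 (Thoc1) and 1.15 (Eny2). Pcid2, of the same complex, was the 1 lower gene, with 108 in the aged and 451 in the young pool, 3.99-fold lower (3.23 to 4.97).

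The 5 genes of the Ran cycle above the floor had log2 ratios from 0.067 to 0.38. None of these 5 was 2-fold apart, against 38.4% of all genes. Nutf2, with 6 counts in the aged and 2 in the young pool, and Rangrf, with 9 and 9, lay below the floor. Ran had 157 counts in the aged pool and 133 in the young one, a log2 ratio of 0.31. Cse1l, which returns importin alpha to the cytoplasm, had 100 and 90, a log2 ratio of 0.22. The intervals of Ran (0.975 to 1.57) and Cse1l (0.866 to 1.56) include equality. Of 9 other pore proteins, 2 were higher by 2-fold or more, or 22.2% against 27.9% of all genes, and none was lower by as much. After the length and GC correction 0 were higher and 1 was lower by 2-fold or more. Ranbp2, the largest protein of the cytoplasmic filaments, had 1027 counts in the aged and 284 in the young pool, 3.79-fold higher (3.32 to 4.33), opposite to its neighbours Nup88 and Nup214. Ahctf1 (Elys), which seeds pore assembly on chromatin, had 2858 and 1099, 2.72-fold higher (2.54 to 2.92). The log2 ratio of Ranbp2 was 1.92, and 0.87 after that correction, and that of Ahctf1 was 1.45, and 0.59 after it.

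Base composition moved with the ratio among the members as among all genes. The 7 members past 2-fold on the higher side had a median transcript GC content of 42.8%, the 23 within 2-fold 48.6% and the 3 lower 47.6%. Spearman's rho between GC content and the log2 ratio was −0.57 over the 33 members and −0.40 over 9902 genes, as a description, since all points come from the same pair of libraries. Kpna3, at 39.6%, Tnpo1, at 40.4%, and Xpo1, at 40.4%, lie in the lowest decile of GC content, where all genes had a median log2 ratio of 1.04. After each ratio was reduced by the median of genes of like length and GC content, Kpna3 had 0.67, Xpo1 0.84 and Tnpo1 −0.32, while Nup155 had 2.18, Xpo4 1.22 and Nup107 −3.07. The members' median after that correction was −0.12, with 2 past 2-fold on the higher side and 6 on the lower, against 13.6% and 14.9% of all genes. Kpna7 had −0.995. The part of base composition in these differences was not tested beyond this correction.

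**Figure D4:**
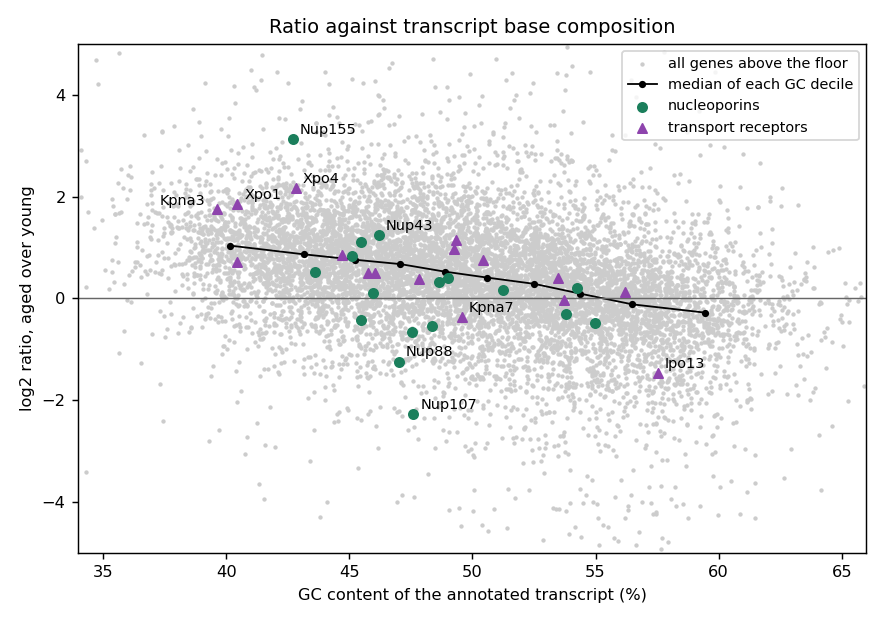
Log2 ratio of aged over young against the GC content of the annotated transcript, in percent, for all genes above the floor (grey), nucleoporins (circles) and transport receptors (triangles), with the median of each GC decile as a line. The line lies at 1.04 in the lowest decile and −0.28 in the highest, and Nup155 and Nup107 lie far from it on opposite sides.

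Oocytes store messages with short poly(A) tails, and cytoplasmic polyadenylation elements near the 3′ end mark those whose tails are lengthened as meiosis resumes. The libraries were primed on poly(A), so the letters TTTTAT and TTTTAAT were looked for in the last 100 bases of each annotated transcript with a 3′ untranslated region of at least that length. They occurred in 9 of the 31 members above the floor with such a region, or 29.0%, and in 20.9% of 8885 genes. Sites of 30 bases are shown for Ipo8 and Nup37, the most abundant receptor and nucleoporin with a match, for Nup88, which was lower in the aged pool, and for Xpo4, which was higher. Capitals mark the match.
Ipo8 (chromosome 6): aggaacTTTTATgaatgtactgtaaaataa
Nup37 (chromosome 10): ccttatTTTTATatcaaacatactgtaaat
Nup88 (chromosome 11): gtttgaataaatTTTTATtcaaaaatttga
Xpo4 (chromosome 14): aaatatgttttcactaaatatTTTTATtac
The match shown began 51 bases from the annotated end in Ipo8, 77 in Nup37, 18 in Nup88 and 9 in Xpo4, whose window held 2 matches in all. The polyadenylation hexamer AATAAA or ATTAAA lay in the last 40 bases of Ipo8, Nup37 and Nup88 and not of Xpo4. It occurred there in 83.9% of the 31 members and 79.2% of the 8885 genes. Whether any match acts as such an element was not tested. No match lay in that window of Kpna7, Kpna3, Xpo1, Nup155 or Nup107. Members with a match had a median log2 ratio of 0.50 and those without 0.36, where all genes had 0.38 with a match and 0.46 without. Of the 9 members with a match, 1 was past 2-fold in each direction, or 11.1% each way, where 25.2% of all genes with a match were higher and 10.1% lower. The 3′ ends used in oocytes were not measured.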

How the data were processed

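Each library was a pool of oocytes lysed together, reverse transcribed from an oligo(dT) adaptor primer, tailed, amplified by PCR and read on a SOLiD sequencer, per the labels' protocols. The genome build was mm9, per the submitters' processing notes. The aligner and the counting program were not given in the sources used here, nor were the use of strand and the treatment of reads with several matches. The authors deposited whole-number counts per Ensembl gene for 18364 of 36227 rows. They also deposited log2 fold changes of young over aged, z scores, p-values and q-values per gene, per the file headers. These compare reads of 1 library per age and served to count marked genes alone.

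Symbols came from GENCODE mouse release 21 (GRCm38), which named 85.5% of rows and 93.7% of counted rows. Chromosomes are those of the deposited table, and coordinates are given for RefSeq promoters alone. Length and GC content are those of the longest protein-coding transcript. The log2 ratio sets the aged above the young CPM. A count of 0 stood as 3 counts, and no fold is given where both counts were 3 or fewer. A count of 0 allows up to 0.161 CPM in the aged and 0.154 CPM in the young library. Intervals are exact (Clopper-Pearson) at 95% and cover counting error only, since PCR reads without molecular identifiers are not independent molecules. The interval code was tested on simulated counts. No test for age was run.

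Alternatives were TMM factors (1.14 aged, 0.878 young, edgeR 4.0.16 in R 4.3.3), centring on the median gene, totals without the 100 most abundant genes, floors of 0 and 100 counts, 0.5 in place of 0, 5 added counts, a 1.5-fold rule, and a correction by 10 bins of length and 10 of GC content, for which 97.0% of genes above the floor had values. The computing environment was Python 3.11.15, with pandas 2.3.3 and numpy 2.4.6 for tables, scipy 1.17.1 for intervals and matplotlib 3.10.9 for plots. Named in full were Kpna7, members whose interval lay beyond 2-fold, the most abundant member per role, members below the floor, and of the pathway list Ran, Cse1l and, among genes at least 2-fold apart, up to 3 furthest per direction (in the lower direction Pcid2 was the only such gene); the remaining members are given more briefly, and Ranbp2, Ahctf1, Sec13, Nupl1 and Nupl2 were chosen after their values were seen. The members, the lists and the rule were chosen with earlier results of these data known.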

Additional observations from a re-analysis of the deposited data

How the results depend on the processing

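The number of members at least 2-fold higher in the aged pool was 7 with library totals. It was 4 with TMM factors, 4 after centring on the median gene, 4 when the 100 top genes were omitted from the totals, 2 after the correction for length and GC content and 12 with a 1.5-fold rule. The number at least 2-fold lower was 3, and 6 after the length and GC correction or 1 where the counting interval also had to lie beyond 2-fold. The median log2 ratio of 0.39 became 0.017 with TMM factors, −0.035 after centring, 0.11 without the 100 most abundant genes and −0.12 after the length and GC correction. The scalings shift every gene by the same amount, and the cause of the other differences was not tested. Floors of 0 and 100 counts, 0.5 in place of 0 and 5 added counts left both counts within 1.5 times and the median within 0.22, the median half-width of the members' counting intervals. Over 6 settings (library totals, the 3 other scalings, the correction and 5 added counts) Nup155 and Xpo4 were at least 2-fold higher in each. Nup107, Nup88 and Ipo13 were at least 2-fold lower in each, and 19 of 33 members kept their sign. The 3 other scalings lower every ratio, so these lower genes were bound to stay lower under them. Only the correction and the added counts could have changed that. Nup155 (100 counts in the aged and 12 in the young pool) and Xpo4 (77 and 18) passed the main floor through the aged pool. Both, and Ipo13 (47 and 136), lie below the floor of 100 counts, which is not among the 6 settings. No paired analysis was possible because each age has 1 library. The depth limits genes such as Nup133, Tnpo3 and Kpna2, whose counting intervals are wide.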
